A study of Oryza sativa with 18 samples.

Results

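Transcript levels of 4 rice genes that make or break down sucrose were followed in leaf sheath during attack by the brown planthopper (BPH), which pierces the phloem with its mouthparts and lives on its sap. The genes were OsSPS4F, which encodes a sucrose-phosphate synthase, OsSUS4 and OsSUS6, which encode sucrose synthases, and OsCIN4, which encodes a cell-wall invertase. They were found by symbol or synonym, and each was read from its brightest probe set that names a single gene. They are 4 of 17905 genes with such a probe set. Sheaths came from plants at the four-leaf stage, grown in a chamber, of the variety 9311, labelled susceptible to BPH, and of the line NIL-BPH9, labelled resistant. A near-isogenic line (NIL) carries a chromosome segment from a donor, here named for the resistance gene BPH9, and the labels do not state its other parent or how many independent lines it stands for. Each line was sampled before insects were added (0 h) and at 3 h and 6 h of their feeding, with 3 biological replicates in each of the 6 groups and 1 array per replicate. Uninfested plants at 3 h and 6 h were not analysed here, so infestation and time of day cannot be told apart in any change over time.

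Sucrose is the form in which most plants, rice included, move carbon from leaves to other organs through the phloem. Sucrose-phosphate synthase joins UDP-glucose and fructose 6-phosphate to sucrose 6-phosphate, and sucrose-phosphatase then releases sucrose. Sucrose is cleaved along separate routes: sucrose synthase splits it reversibly, with UDP, into UDP-glucose and fructose, and invertases hydrolyse it irreversibly to glucose and fructose, with the cell-wall forms acting outside the cell. Hexokinases and fructokinases then phosphorylate the freed sugars.

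The values are log2 signals of 1-colour arrays. Replicate arrays correlated at 0.956 to 0.967 across probe sets, and arrays of different groups at 0.94 to 0.96, so the ranges overlapped. Replicate 3 of 9311 at 0 h stood apart on the fourth principal component, at 74.5 against -46.9 to 31.6 for the other arrays, and all 4 genes had their lowest 9311 0 h value there, so for the 4 genes and for several other genes named below, values that use that group are also given without it. Of 5 green-leaf marker genes matched, 4 had a probe set and all 4 lay above the array median on all 18 arrays, with a median RBCS signal of 14.91. Some markers of other organs were also above the median on all 18 arrays (LSI1 and IRT1 of root, GLUA2 and GLB1 of seed, OSC4 of pollen), while LSI2 of root and OSC6 of pollen were above it on 0 arrays. Phloem markers, 4 of 4 with a probe set, summed to a log2 signal of 12.98 to 13.02 in 9311 at 0 h, 13.12 to 13.24 at 3 h and 13.12 to 13.23 at 6 h. In NIL-BPH9 the phloem sum was 12.96 to 13.00, 12.93 to 12.98 and 12.99 to 13.05 at the same times. Those ranges lay below the 9311 ones at 3 h and 6 h. Signals were summed on the linear scale, so the sum mostly follows RPP16 (median log2 signal 12.70). The medians of SUT1, SUT4 and RPP17 were 10.05, 9.16 and 5.17, and RPP17 reached the array median on 7 of 18 arrays. At 6 h the mean of SUT1 was 9.74 in 9311 and 10.11 in NIL-BPH9, and that of SUT4 was 9.22 and 8.97. Other lists also differed: the root sum was 8.70 to 8.95 in 9311 at 0 h and 9.37 to 9.47 at 3 h, against 8.81 to 8.96 and at most 9.12 in NIL-BPH9, and the green-leaf sum at 3 h was 16.46 to 16.50 in 9311 and 16.66 to 16.67 in NIL-BPH9. At 6 h the root sums were 8.82 to 9.21 and 8.90 to 8.94, and the green-leaf sums 16.62 to 16.66 and 16.72 to 16.83. The part of these markers in the results below was not tested.

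After infestation, OsSPS4F and OsSUS6 fell from their 0 h level in the resistant NIL-BPH9 and did not fall detectably from it in the susceptible 9311. From 3 h to 6 h, however, OsSUS6 changed by -0.35 in 9311 (limma adjusted p = 0.0502) and by -0.29 in NIL-BPH9 (adjusted p = 0.0642). The lines did not differ detectably in that step (0.06, adjusted p = 0.889). By 6 h in NIL-BPH9, OsSPS4F had fallen by 0.78 on the log2 scale, or 1.72-fold, and OsSUS6 had fallen by 0.59 on that scale. OsSUS4 was different: at 3 h it was lower in both lines, 1.23-fold in 9311 and 1.54-fold in NIL-BPH9, and it rose again from 3 h to 6 h in NIL-BPH9. OsCIN4 passed no test within a line or between the lines at one time, but its 3 h response differed between the lines. The 6 h fall of OsSPS4F was the largest change of these genes from 0 h within a line.

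**Figure D1:**
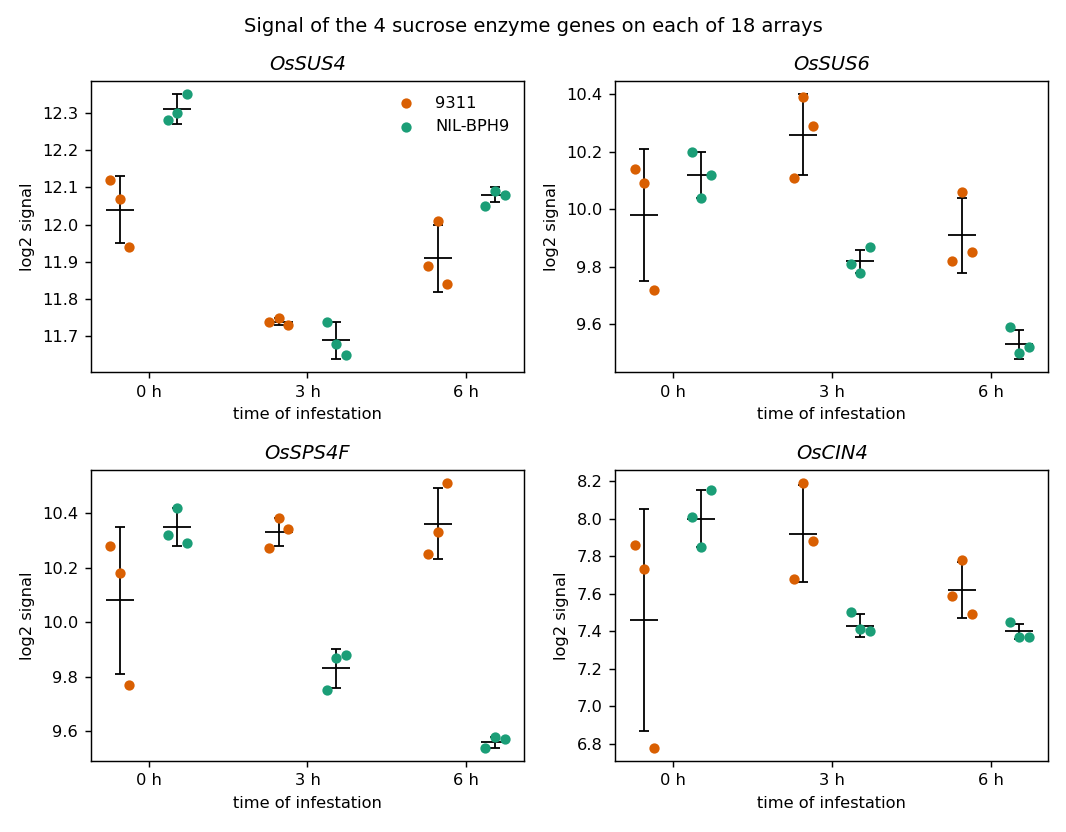
Log2 signal (vertical axis, a separate scale for each gene) of OsSUS4, OsSUS6, OsSPS4F and OsCIN4 against time of infestation. Points are arrays, black bars are the mean and SD of 3 arrays, orange is 9311 and green is NIL-BPH9. OsSPS4F in NIL-BPH9 steps down from 10.29 to 10.42 at 0 h to 9.54 to 9.58 at 6 h, and the lowest 9311 point at 0 h in every panel is replicate 3.

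On the synthesis side, OsSPS4F (LOC4345220) gave log2 signals of 10.32, 10.42 and 10.29 on the NIL-BPH9 arrays at 0 h, 9.75, 9.87 and 9.88 at 3 h, and 9.54, 9.58 and 9.57 at 6 h. The 3 NIL-BPH9 groups did not overlap and each later group lay below the earlier one. In 9311 the signals were 10.28, 10.18 and 9.77 at 0 h, 10.27, 10.38 and 10.34 at 3 h, and 10.25, 10.33 and 10.51 at 6 h. Apart from the low replicate 3 at 0 h, all 9311 values lay within the narrow band from 10.18 to 10.51.

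OsSPS4F fell in NIL-BPH9 by 0.52 at 3 h (SE 0.10, limma adjusted p = 0.00152, a 1.43-fold fall) and by 0.78 at 6 h (SE 0.10, adjusted p = 2.19e-05). The step from 3 h to 6 h, -0.27, did not pass (adjusted p = 0.0861). In 9311 the log2 differences from 0 h were 0.25 at 3 h (95% interval 0.04 to 0.46, adjusted p = 0.112) and 0.28 at 6 h (0.07 to 0.49, adjusted p = 0.106). Without replicate 3 of 9311 at 0 h these values were 0.10 and 0.13 (adjusted p = 0.484 and 0.364), while without replicate 1 they were 0.35 and 0.38 and both passed (adjusted p = 0.0250 and 0.0279).

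Between the lines, OsSPS4F did not pass at 0 h, where the log2 difference of NIL-BPH9 from 9311 was 0.27 (adjusted p = 0.0892). That value was 0.11 without replicate 3 of 9311 (adjusted p = 0.443) and 0.37, past the threshold, without replicate 1 (adjusted p = 0.0184). NIL-BPH9 was lower at 3 h by a log2 difference of -0.50 (adjusted p = 0.00305) and at 6 h by -0.80, or 1.74-fold (95% interval -1.01 to -0.59, adjusted p = 1.94e-05). All 3 NIL-BPH9 arrays lay below all 3 arrays of 9311 at each of these times. Of all tested probe sets, 4.78% had a lower line difference at 6 h.

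Among the cleavage enzymes, OsSUS4 (LOC4332788) had a tight pattern. Its 9311 arrays read 12.12, 12.07 and 11.94 at 0 h, 11.74, 11.75 and 11.73 at 3 h, and 11.89, 12.01 and 11.84 at 6 h. The NIL-BPH9 arrays read 12.28, 12.30 and 12.35 at 0 h, 11.74, 11.68 and 11.65 at 3 h, and 12.05, 12.09 and 12.08 at 6 h. In both lines the 3 h arrays were the lowest and did not overlap with those of 0 h or 6 h. NIL-BPH9 at 0 h was above every other array.

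OsSUS4 fell at 3 h by 0.30 in 9311 (SE 0.05, limma adjusted p = 0.000724, or by 0.35 without replicate 3 at 0 h) and by 0.62 in NIL-BPH9 (SE 0.05, adjusted p = 1.84e-07). From 3 h to 6 h it rose in NIL-BPH9 by a log2 of 0.39 (SE 0.05, adjusted p = 4.97e-05), and the corresponding 9311 difference of 0.17 did not pass (adjusted p = 0.0824). At 6 h it was still below 0 h in NIL-BPH9, by a log2 change of -0.23 (adjusted p = 0.00648), and the 9311 value of -0.13 did not pass (adjusted p = 0.194). Without replicate 3 of 9311 at 0 h the 9311 change at 6 h was -0.18 and passed (adjusted p = 0.0332).

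Before infestation, OsSUS4 was higher in NIL-BPH9 than in 9311 by a log2 of 0.27 (95% interval 0.15 to 0.38, adjusted p = 0.00229), and by 0.22 without replicate 3 of 9311 (adjusted p = 0.00797). The line difference was -0.05 at 3 h (95% interval -0.17 to 0.06, adjusted p = 0.702) and 0.16 at 6 h (0.05 to 0.28, adjusted p = 0.0657). The 6 h difference passed without replicate 2 of 9311 at 6 h, at 0.21 (adjusted p = 0.0289). Centring each array on its median ended 4 calls of OsSUS4: the 9311 fall at 3 h (-0.25, adjusted p = 0.0935), the NIL-BPH9 fall at 6 h (-0.11, adjusted p = 0.467), the line difference at 0 h (0.22, adjusted p = 0.154) and the line difference in the 3 h response (-0.34, adjusted p = 0.157). The line difference at 0 h was also lost in a fit to only the arrays compared (adjusted p = 0.0776).

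OsSUS6 (LOC4331252) read 10.14, 10.09 and 9.72 in 9311 at 0 h, 10.11, 10.39 and 10.29 at 3 h, and 9.82, 10.06 and 9.85 at 6 h. In NIL-BPH9 it read 10.20, 10.04 and 10.12 at 0 h, 9.81, 9.78 and 9.87 at 3 h, and 9.59, 9.50 and 9.52 at 6 h. As with OsSPS4F, the NIL-BPH9 groups did not overlap and lay lower at each later time, while the 9311 values at 0 h overlapped with those of both later times. A second probe set of the gene had a mean log2 signal of 2.18 and lay below the array median on all 18 arrays, so it did not enter the main test.

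OsSUS6 fell in NIL-BPH9 at 6 h by 0.59 (SE 0.10, limma adjusted p = 0.000484). Its 3 h value of -0.30 missed the threshold (95% interval -0.51 to -0.09, adjusted p = 0.0537) but passed under quantile normalization (0.0347), a stricter filter on dim probe sets (0.0471) and a fit to only the arrays compared (0.0177). In 9311 the log2 difference from 0 h was 0.28 at 3 h (adjusted p = 0.0746) and -0.07 at 6 h (adjusted p = 0.768), or 0.15 and -0.21 without replicate 3 of 9311 at 0 h (adjusted p = 0.325 and 0.164). The 3 h value passed at 0.36 without replicate 1 of 9311 at 0 h, and at 0.35 without replicate 1 of 9311 at 3 h. The 9311 difference of 6 h from 3 h, -0.35, lay at the threshold (adjusted p = 0.0502), and it was -0.43 and passed without replicate 1 of 9311 at 3 h or replicate 2 at 6 h.

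The lines did not differ detectably in OsSUS6 at 0 h (0.14, 95% interval -0.07 to 0.35, limma adjusted p = 0.439), and without replicate 3 of 9311 that value was 0.0050 (adjusted p = 0.984). NIL-BPH9 was lower at 3 h, with a log2 difference of -0.44 (adjusted p = 0.00839), and at 6 h, with -0.38 (adjusted p = 0.0189), and the arrays of the lines did not overlap at either time. The 3 h call was lost without replicate 2 of 9311 at 3 h (adjusted p = 0.0579). The 6 h call was lost without replicate 2 of 9311 at 6 h (adjusted p = 0.111) and without replicate 2 or 3 of NIL-BPH9 at 6 h (adjusted p = 0.0667 and 0.0599).

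OsCIN4 (LOC4324001) had the widest spread. Its 9311 arrays read 7.86, 7.73 and 6.78 at 0 h, 7.68, 8.19 and 7.88 at 3 h, and 7.59, 7.78 and 7.49 at 6 h. Its NIL-BPH9 arrays read 8.01, 7.85 and 8.15 at 0 h, 7.50, 7.41 and 7.40 at 3 h, and 7.45, 7.37 and 7.37 at 6 h. The NIL-BPH9 arrays at 3 h and 6 h lay below all those at 0 h, whereas the 9311 arrays overlapped at all times, and replicate 3 of 9311 at 0 h was 1.02 below the mean of the other arrays of its group (a deviation of -1.02).

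Within NIL-BPH9 the log2 differences of OsCIN4 from 0 h were -0.57 at 3 h (SE 0.21, limma adjusted p = 0.0858) and -0.61 at 6 h (SE 0.21, adjusted p = 0.0538), and both passed in a fit to only the arrays compared (adjusted p = 0.0223 and 0.0157). In 9311 they were 0.46 at 3 h (95% interval 0.02 to 0.91, adjusted p = 0.179) and 0.17 at 6 h (-0.28 to 0.61, adjusted p = 0.746). Without replicate 3 of 9311 at 0 h the 9311 values were 0.12 and -0.17 (adjusted p = 0.703 and 0.589), and without replicate 1 the 3 h value of 0.66 passed (adjusted p = 0.0496). The line differences were 0.55 at 0 h (adjusted p = 0.0990), -0.49 at 3 h (adjusted p = 0.220) and -0.23 at 6 h (adjusted p = 0.571), and that at 0 h was 0.21 without replicate 3 of 9311 (adjusted p = 0.504) and 0.75, past the threshold, without replicate 1 (adjusted p = 0.0241).

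**Figure D2:**
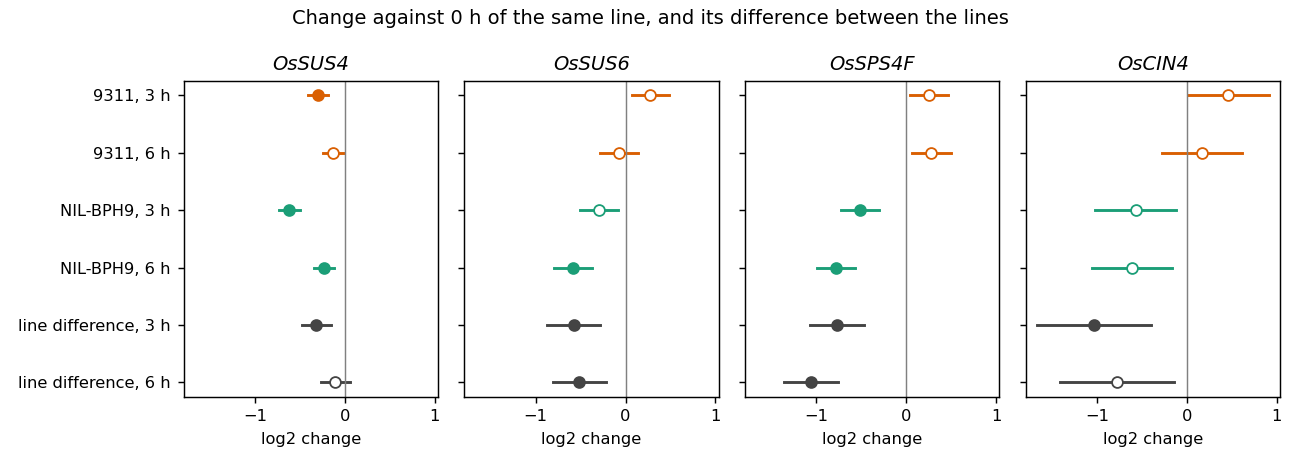
Log2 change from 0 h in each line at 3 h and 6 h, and the NIL-BPH9 change minus the 9311 change (horizontal axis), for each gene. Bars are 95% intervals from limma, filled points passed the adjusted threshold of 0.05 and open points did not. OsSPS4F shows the NIL-BPH9 falls of -0.52 and -0.78 beside 9311 values of 0.25 and 0.28.

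Counted together in 9311, 1 of the 4 genes fell at 3 h and 0 rose, when 7.22% of 33094 tested probe sets fell and 14.8% passed in either direction. At 6 h 0 of 4 changed in 9311, against 7.62% of all probe sets, and from 3 h to 6 h 0 of 4, against 5.14%. In NIL-BPH9, 2 of 4 fell at 3 h, where 6.47% of all probe sets fell and 14.1% passed in either direction, and 3 of 4 fell at 6 h, where 10.4% fell and 18.7% passed. From 3 h to 6 h 1 of 4 rose in NIL-BPH9, against 7.17% that rose and 14.9% that passed. Between the lines, 1 of 4 was higher in NIL-BPH9 at 0 h, against 6.92% of all probe sets higher and 14.4% passing in either direction. NIL-BPH9 was lower in 2 of 4 at 3 h, against 3.21% lower and 7.46% passing, and in 2 of 4 at 6 h, against 5.54% and 11.3%. The median log2 change over all tested probe sets lay between -0.057 and 0.024 in every comparison.

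Whether the responses themselves differed was tested as the NIL-BPH9 change minus the 9311 change. At 3 h the difference was below 0 and passed for 4 of the 4 genes, against 4.72% of all probe sets in that direction and 10.5% in either: -0.77 for OsSPS4F (SE 0.14, limma adjusted p = 0.00145), -0.32 for OsSUS4 (SE 0.08, adjusted p = 0.0112), -0.58 for OsSUS6 (SE 0.14, adjusted p = 0.0122) and -1.03 for OsCIN4 (SE 0.30, adjusted p = 0.0332). At 6 h it passed for 2 of 4, against 3.19% in that direction and 7.03% in either: -1.06 for OsSPS4F (SE 0.14, adjusted p = 0.000170) and -0.51 for OsSUS6 (SE 0.14, adjusted p = 0.0355). The 6 h values of OsCIN4 (-0.78, adjusted p = 0.130) and OsSUS4 (-0.11, adjusted p = 0.471) did not pass. The change from 3 h to 6 h differed between the lines for 0 of 4 genes, against 4.38% of all probe sets, with values of -0.30 to 0.26 and adjusted p of 0.150 to 0.889. These differences share the 0 h or 3 h arrays with the comparisons above and are not independent of them.

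Without replicate 3 of 9311 at 0 h, all 4 differences at 3 h were smaller in size and still passed, at -0.61 for OsSPS4F, -0.27 for OsSUS4, -0.45 for OsSUS6 and -0.70 for OsCIN4 (limma adjusted p = 0.000712, 0.0165, 0.0194 and 0.0452). At 6 h OsSPS4F was -0.91 (adjusted p = 3.61e-05) and OsSUS6, at -0.38, was lost (adjusted p = 0.0656). OsCIN4 moved from -0.78 to -0.44 (adjusted p = 0.280), and it passed at -0.98 without replicate 1 of 9311 at 0 h (adjusted p = 0.0367). With each of the 12 arrays involved left out in turn, OsSPS4F passed every time at both 3 h and 6 h, and OsSUS4 and OsSUS6 passed every time at 3 h. The 3 h call of OsCIN4 was lost in 7 of 12 (without replicate 2 or 3 of 9311 at 3 h, 1 or 3 of NIL-BPH9 at 0 h, or any replicate of NIL-BPH9 at 3 h), with adjusted p up to 0.0964. The 6 h call of OsSUS6 was also lost in 7 of 12 (without replicate 3 of 9311 at 0 h, 2 of 9311 at 6 h, 1 or 3 of NIL-BPH9 at 0 h, or any replicate of NIL-BPH9 at 6 h), with adjusted p up to 0.102. With all arrays kept, the OsCIN4 call at 3 h was lost with centring (adjusted p = 0.0546), with a fit to only the arrays compared (0.0770) and without the intensity trend (0.0595). The OsSUS6 call at 6 h was lost under the same settings (0.133, 0.0806 and 0.0777) and without a filter on dim probe sets (0.0540).

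**Figure D3:**
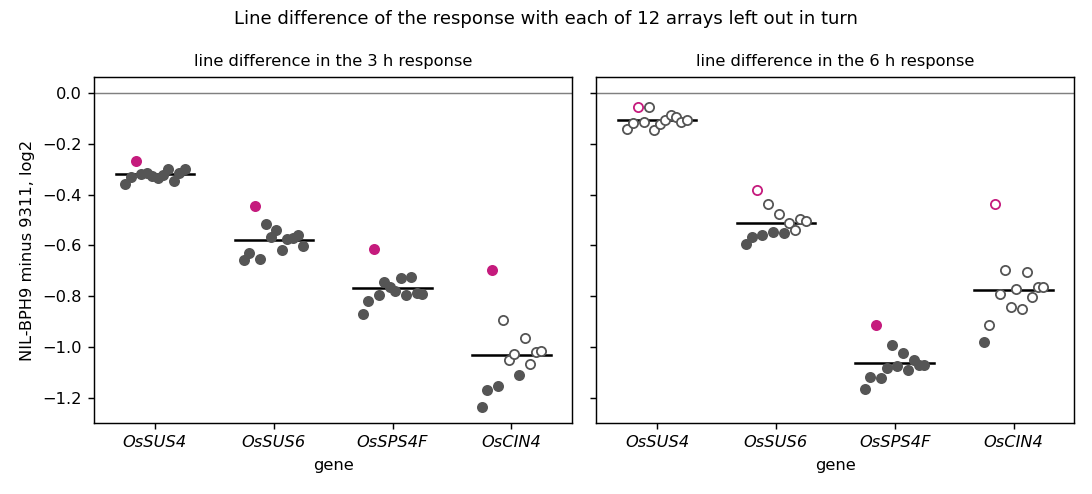
NIL-BPH9 change minus 9311 change on the log2 scale (vertical axis) for each gene at 3 h (left) and 6 h (right). Lines are the values with all arrays, points are the values with 1 of 12 arrays left out, filled where the adjusted p stayed under 0.05, and magenta marks replicate 3 of 9311 at 0 h. The OsSPS4F points are all filled, and the OsCIN4 value at 3 h moves from -1.03 to -0.70 without the magenta array.

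A measure of RNA integrity moved with some of these groups. The log2 ratio of 3' to 5' control signals, averaged over 5 control pairs, was 1.61 ± 0.04 (SD, n = 3), 1.76 ± 0.06 and 1.77 ± 0.09 in 9311 at 0, 3 and 6 h, and 1.69 ± 0.08, 1.68 ± 0.03 and 1.70 ± 0.03 in NIL-BPH9. Among single pairs, the mean ratio of an actin pair went from 3.11 ± 0.13 to 3.42 ± 0.12 in 9311 and from 3.50 ± 0.13 to 3.24 ± 0.10 in NIL-BPH9, and that of a glyceraldehyde-3-phosphate dehydrogenase pair from 1.84 ± 0.05 to 2.05 ± 0.01 and from 2.07 ± 0.12 to 1.82 ± 0.11. At 6 h the actin ratios were 3.50 ± 0.02 and 3.53 ± 0.11, and the dehydrogenase ratios 2.25 ± 0.24 and 2.06 ± 0.14. From 0 h to 3 h another actin pair went from 2.69 to 2.80 in 9311 and from 2.79 to 2.75 in NIL-BPH9. Cyclophilin went from 0.90 to 1.11 and from 0.71 to 1.12, and ubiquitin from -0.51 to -0.56 and from -0.64 to -0.54. The single pairs thus did not all move alike. Control pairs with a signal under the array median on any array were left out. The part of RNA integrity in the line differences was not tested. In a bulk sheath sample, fewer cells of a type and less RNA per cell cannot be told apart.

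Ordered by group mean, OsSPS4F was highest in 9311 at 6 h (10.36 ± 0.13, SD, n = 3), NIL-BPH9 at 0 h (10.35 ± 0.07) and 9311 at 3 h (10.33 ± 0.05), which overlapped, followed by 9311 at 0 h (10.08 ± 0.27). It was lowest in NIL-BPH9 at 3 h (9.83 ± 0.07) and at 6 h (9.56 ± 0.02), and these did not overlap with each other. OsSUS6 had the same groups in its lowest places, NIL-BPH9 at 3 h (9.82 ± 0.04) and at 6 h (9.53 ± 0.05), with its highest mean in 9311 at 3 h (10.26 ± 0.14), and of its neighbouring groups only the lowest was separate from the next. OsCIN4 was highest in NIL-BPH9 at 0 h, followed by 9311 at 3 h (7.92 ± 0.26), and lowest in NIL-BPH9 at 6 h (7.40 ± 0.04), and every neighbouring pair of groups overlapped. OsSUS4 ran from 12.31 ± 0.04 in NIL-BPH9 at 0 h, separate from all others, to 11.69 ± 0.05 in NIL-BPH9 at 3 h, which overlapped with 9311 at 3 h (11.74 ± 0.01).

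Across the 18 arrays the profiles of OsSUS6 and OsSPS4F correlated at 0.83, those of OsSUS6 and OsCIN4 at 0.80 and those of OsSPS4F and OsCIN4 at 0.69 (Pearson's r, a description over arrays that share groups and scaling). OsSUS4 had a different course, with r of 0.01 to OsSUS6, 0.10 to OsSPS4F and 0.30 to OsCIN4. Over the 17 arrays without replicate 3 of 9311 at 0 h, its r was 0.00, 0.10 and 0.37, and those between the other 3 genes were 0.72 to 0.88. Over deviations from the group means, the r of OsSUS4 was 0.63 to OsSUS6, 0.31 to OsSPS4F and 0.74 to OsCIN4. Those between the other 3 genes were 0.62 to 0.91. The deviations include replicate 3 of 9311 at 0 h, where all 4 genes were low, and their r was not computed without it. Among 2263 named genes, the profile most like that of OsSUS6 was that of OsSUS5, another sucrose synthase gene (0.953 over 18 arrays), followed by PNP1 (0.915) and AtMAP70-2 (0.908). Probe sequences were not used here, so whether the probe sets of these sucrose synthases bind each other's transcripts was not tested. OsSUS2, also a sucrose synthase, ran opposite to OsSUS6 (-0.84).

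OsSUS4 was most like OsPRR95 (0.954), a pseudo-response regulator of the circadian clock, with OsNug2 (0.910) and IVD (0.875) next. The group means of OsPRR95 were 12.68, 12.10 and 12.59 at 0, 3 and 6 h in 9311 and 13.09, 12.03 and 12.55 in NIL-BPH9. Its lowest mean was thus also that of 3 h in both lines. OsSPS4F was most like GINT1 (0.906), wsl3 (0.892) and PNP1 (0.871). OsCIN4 was most like RHD3 (0.922), OsQSOX1 (0.911) and SPL9 (0.902), and these values were 0.872, 0.866 and 0.867 over the 17 arrays without replicate 3 of 9311 at 0 h.

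The rest of sucrose metabolism did not move as a block. Of 38 genes on a list of sucrose enzymes, transporters and sugar kinases matched by name, 34 were not among the 4 genes above, 27 of these had a probe set that names a single gene and 24 were tested. At 3 h 6 rose and 1 fell in 9311 (29.2% of the 24, against 14.8% of all probe sets, with a median log2 change of 0.043 against 0.001), and 4 rose and 4 fell in NIL-BPH9 (33.3% against 14.1%, median 0.128 against -0.018). At 6 h 3 rose and 0 fell in 9311 (12.5% against 7.62%, median 0.010 against -0.025), and 7 rose and 2 fell in NIL-BPH9 (37.5% against 18.7%, median 0.008 against -0.055). The response differed between the lines for 1 gene upwards and 2 downwards at 3 h (12.5% against 10.5%) and for 2 each way at 6 h (16.7% against 7.03%). Without replicate 3 of 9311 at 0 h the 9311 counts were 7 up and 1 down at 3 h and 6 up and 0 down at 6 h, and those of the line difference were 1 up and 4 down at 3 h and 0 up and 2 down at 6 h.

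**Figure D4:**
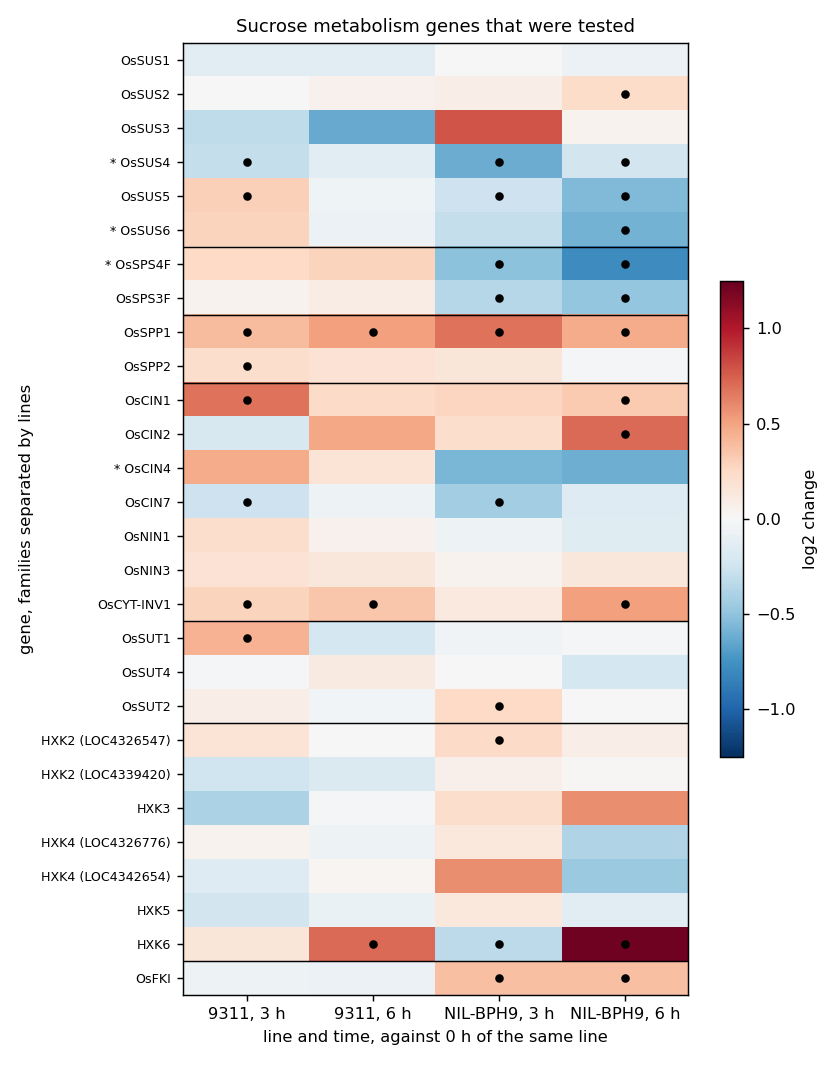
Log2 change from 0 h of the same line (colour, red higher and blue lower) for the 4 genes, marked with an asterisk, and 24 other tested genes of sucrose metabolism, in families separated by black lines (from the top: sucrose synthases, sucrose-phosphate synthases, sucrose-phosphatases, invertases, sucrose transporters, hexokinases, fructokinase). Dots mark changes that passed the adjusted threshold. OsSPP1 is red and dotted in all 4 columns (0.40, 0.51, 0.68 and 0.47), while OsSPS4F is blue and dotted in the NIL-BPH9 columns.

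In the sucrose synthase family, OsSUS5 had values like those of OsSUS6. It read 10.40, 10.26 and 10.39 in NIL-BPH9 at 0 h and 9.76, 9.88 and 9.75 at 6 h, a fall of 0.55 (limma adjusted p = 3.16e-05). In 9311 it rose at 3 h by a log2 of 0.29 (adjusted p = 0.00900) and was at -0.06 by 6 h (adjusted p = 0.745). These were 0.21 (adjusted p = 0.0398) and -0.14 (adjusted p = 0.236) without replicate 3 of 9311 at 0 h. Its response differed between the lines by -0.56 at 3 h (adjusted p = 0.00144) and -0.49 at 6 h (adjusted p = 0.00727). The 6 h line difference was lost with centring (adjusted p = 0.0861), and the 9311 rise in a fit to only the arrays compared (adjusted p = 0.0809). OsSUS1, also a sucrose synthase gene, passed no test.

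The other tested sucrose-phosphate synthase gene, OsSPS3F, fell in NIL-BPH9 at 6 h by 0.49 (limma adjusted p = 0.00515), while its 9311 change was 0.09 (adjusted p = 0.733) and turned to -0.10 without replicate 3 at 0 h (adjusted p = 0.496). The NIL-BPH9 call was lost with centring (adjusted p = 0.0599). At 0 h OsSPS3F was higher in NIL-BPH9 by a log2 of 0.42 (adjusted p = 0.0134). That call was lost with centring (adjusted p = 0.0690) and in a fit to only the arrays compared (adjusted p = 0.1655). Without replicate 3 of 9311 the value was 0.24 and passed (adjusted p = 0.0433). Without replicate 3 of NIL-BPH9 it was 0.35 and did not pass (adjusted p = 0.0776). At 6 h the lines did not differ detectably (-0.15, adjusted p = 0.443). Its line difference in the 6 h response was -0.58 (adjusted p = 0.0328), lost with centring (adjusted p = 0.113) and in 6 of 12 fits with an array left out. By contrast OsSPP1, which encodes a sucrose-phosphatase, the enzyme of the next step, rose in both lines. It read 9.30, 9.30 and 9.31 in 9311 at 0 h and 8.93, 9.09 and 8.94 in NIL-BPH9. At 3 h it had risen by a log2 of 0.40 in 9311 (adjusted p = 0.000976) and 0.68 in NIL-BPH9 (adjusted p = 2.95e-06), and the line difference in these responses did not pass (0.28, adjusted p = 0.101). At 6 h in NIL-BPH9 the transcripts of OsSPS4F and OsSPS3F were thus below 0 h, and that of OsSPP1 was above it (0.47, adjusted p = 0.000246). From 3 h to 6 h OsSPP1 changed there by -0.21, which did not pass (adjusted p = 0.0630). OsSPP2, the other sucrose-phosphatase gene, did not differ detectably from 0 h in NIL-BPH9. Its values were 0.15 at 3 h and -0.016 at 6 h (adjusted p = 0.0810 and 0.883).

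Among the other 6 tested invertase genes, OsCIN7 fell in NIL-BPH9 at 3 h by 0.44 (limma adjusted p = 0.000959), and the OsCIN4 value there had the same sign. Its 9311 fall at 3 h was -0.26 (adjusted p = 0.0402), which was lost without replicate 3 of 9311 at 0 h (-0.14, adjusted p = 0.184) and without any of the replicates at 3 h (adjusted p = 0.0767 to 0.116). Its line difference at 3 h, -0.18, did not pass (adjusted p = 0.372), but did at -0.30 without replicate 3 of 9311 at 0 h (adjusted p = 0.0359).

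OsCIN1, a cell-wall invertase gene, rose in 9311 at 3 h by a log2 of 0.68 (limma adjusted p = 7.07e-05). Its NIL-BPH9 value was 0.27 (adjusted p = 0.0728), and the line difference of -0.41 did not pass (adjusted p = 0.0698), although it did at -0.51 without replicate 3 of 9311 at 0 h (adjusted p = 0.0133). OsCIN2, a cell-wall invertase gene known for its part in grain filling, rose in NIL-BPH9 at 6 h by 0.71 (adjusted p = 0.00269). Its 9311 value of 0.48 (adjusted p = 0.0561) was 0.61 and passed without that array (adjusted p = 0.0147). OsCYT-INV1, which encodes a cytosolic invertase, rose at 6 h by 0.35 in 9311 (adjusted p = 0.00285) and by 0.51 in NIL-BPH9 (adjusted p = 3.46e-05). The line differences in the 6 h responses of OsCIN1, OsCIN2 and OsCYT-INV1 did not pass (adjusted p = 0.762, 0.578 and 0.349).

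Downstream, a hexokinase gene that the gene table lists as HXK6 (LOC4338010) rose at 6 h by a log2 of 0.71 in 9311 (limma adjusted p = 0.000180) and 1.22 in NIL-BPH9 (adjusted p = 1.10e-07). The line difference in the 6 h response of HXK6, 0.51, passed but was lost in 10 of 12 fits with an array left out. Its fall in NIL-BPH9 at 3 h (-0.33) was lost in 5 of 6 such fits. The line difference in its 3 h to 6 h change passed in all 12, at 0.93 to 1.09. Another hexokinase gene, listed as HXK4 (LOC4342654), fell in NIL-BPH9 from 3 h to 6 h by 1.04 (adjusted p = 0.00200). Its differences from 0 h, 0.58 at 3 h and -0.46 at 6 h, did not pass (adjusted p = 0.0803 and 0.148). OsFKI, a fructokinase gene, rose in NIL-BPH9 by 0.38 at 3 h and 0.37 at 6 h (adjusted p = 0.00559 and 0.00549). Its 9311 values were -0.06 and -0.07 (adjusted p = 0.731 and 0.744), or 0.016 and 0.012 without replicate 3 at 0 h (adjusted p = 0.942 and 0.958). At 0 h OsFKI was lower in NIL-BPH9 (-0.36, a call lost only in a fit to the arrays compared, adjusted p = 0.0728). Its means were 10.12, 10.06 and 10.06 in 9311 and 9.76, 10.14 and 10.14 in NIL-BPH9 at 0, 3 and 6 h. The line difference in its response was 0.44 at 3 h and at 6 h. Those calls were lost in 6 of 12 and 8 of 12 fits with an array left out.

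Of the sucrose transporter genes, OsSUT1, which is also on the phloem marker list, rose in 9311 at 3 h by 0.43 (limma adjusted p = 0.0132). That call was lost without replicate 3 of 9311 at 3 h (adjusted p = 0.0562). From 3 h to 6 h OsSUT1 fell in 9311 by 0.65 (adjusted p = 0.00128). At 6 h it did not differ detectably from 0 h there (-0.22, adjusted p = 0.309). The line difference in its 3 h to 6 h change was 0.68 (adjusted p = 0.0184), lost in 3 of 12 fits with an array left out. OsSUT2 rose in NIL-BPH9 by 0.25 at 3 h (adjusted p = 0.00539) and fell by 0.25 from 3 h to 6 h (adjusted p = 0.00476), and both calls were lost with centring (adjusted p = 0.0536 and 0.312).

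Because NIL-BPH9, as a near-isogenic line, carries a donor segment, the 10 nearest tested genes in gene order were read beside each gene. Around OsSPS4F, 3 of 10 neighbours were higher and 1 was lower in NIL-BPH9 at 0 h (14.4% of all probe sets passed there), 0 of 10 passed at 3 h (7.46% of all) and 0 were higher and 2 lower at 6 h (11.3% of all). Around OsSUS4, 1 of 10 was higher and 2 were lower at 0 h. Around OsSUS6 1 of 10 was lower at 0 h and at 3 h, and around OsCIN4 1 of 10 was higher at 0 h and 0 passed at 3 h or 6 h. Where the donor segments lie was not tested.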

How the data were processed

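Per the labels, total RNA of rice leaf sheath was labelled with biotin through the GeneChip 3' IVT Express kit. The authors deposited 1 log2 value per probe set and array for 18 arrays, made with MAS5 per the submitters' processing notes, whose version and options none of the sources here record. The deposited values have a 2% trimmed mean of 500.1 on the linear scale on every array, array medians of 5.18 to 5.52 and 24806 values at 0. No detection calls were used, and the number of arrays limits the precision.

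Of 57194 rice probe sets, 22436 name a single gene, 95 name several and 34663 are unnamed here. All 17905 genes matched RefSeq's gene table (assembly ASM3414082v1), used only for names and gene order. Probe sets at or above the array median on at least 3 arrays were tested (33094) with limma 3.58.1 in R 4.3.3: group means over all 18 arrays, 12 comparisons, moderated variances (eBayes) that follow an intensity trend, and p-values adjusted by Benjamini-Hochberg over all probe sets. The threshold was 0.05. Adjusted p-values come from this fit, or, where a setting or a left-out array is named, from the same limma test under that setting. "Rose", "fell", "passed" and "higher" refer to that threshold. The fit was checked on simulated data.

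The 4 genes and the gene lists were chosen with earlier results of these data known. Listed genes were matched by symbol or synonym, 5 genes with colliding symbols were left out, and UDP-glucose pyrophosphorylase genes were not matched. Named from the list are at most 3 called genes per family, those with the largest changes, less those whose calls each ended when some array was left out, a limit set after values were seen. OsSUS1, OsSUS2, OsSPP2, OsCIN7 and the uncalled values were also chosen after their values were seen. The genes of most similar profile are the top 3 by Pearson's r. Alternatives were quantile normalization, centring, other filters, a signal floor of 32, only the arrays compared, no trend, a replicate block, the other OsSUS6 probe set and each array left out. The labels say that replicates are biological.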

Additional observations from a re-analysis of the deposited data

Results flagged for a closer look

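The line difference in the response (NIL-BPH9 change minus 9311 change, log2) passed its own test in limma for 6 results. At 3 h these were OsSUS4 (-0.32), OsSUS6 (-0.58), OsSPS4F (-0.77) and OsCIN4 (-1.03), and at 6 h OsSUS6 (-0.51) and OsSPS4F (-1.06). The adjusted p-values were 0.0112, 0.0122, 0.00145, 0.0332, 0.0355 and 0.000170 in that order, over 3 arrays per group.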

How the results depend on the processing

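Over 396 recomputed values of the 4 genes with all arrays kept, 367 kept their direction and side of the threshold, 16 lost a call, 12 gained one and 1 turned: the line difference in the 3 h response of OsSUS6 was 2.32 with its other, dim probe set (adjusted p = 0.614). Of 360 values with an array left out, 330 kept both, 18 lost a call and 12 gained one. The falls of OsSPS4F in NIL-BPH9 and its line differences at 3 h, at 6 h and in both responses kept their calls in every alternative, as did the fall at 3 h and the rise from 3 h to 6 h of OsSUS4 in NIL-BPH9.

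The number of the 4 genes called moved by more than 1.5 times in the following cases with all arrays kept. With centring it was 0 in 9311 at 3 h, 1 in 9311 at 6 h, 0 between the lines at 0 h, and 2 and 1 for the line difference in the 3 h and 6 h responses. Quantile normalization, the filter at 9 arrays and the signal floor of 32 each gave 1 in 9311 from 3 h to 6 h. With only the arrays compared it was 4 in NIL-BPH9 at 3 h, 3 from 3 h to 6 h, 0 between the lines at 0 h and 1 for the 6 h line difference, and no filter or no trend also gave 1 there. With an array left out the ranges were 1 to 4 in 9311 at 3 h, 0 to 1 in 9311 at 6 h and from 3 h to 6 h, 1 to 3 between the lines at 0 h, 1 to 2 at 3 h and at 6 h, 3 to 4 for the 3 h line difference and 1 to 3 for that at 6 h. Calls over all tested probe sets also moved with the setting, between the lines at 0 h from 4769 to 1734 with only the arrays compared. The moves in the 4 genes cannot be told apart from these.

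No strong effect shared by arrays of the same replicate number was seen: over 45 such pairs the deviations correlated at -0.107 to 0.066. The labels do not state whether samples of the same number were taken or processed together, and these correlations cannot show it. With the replicate block no call of the 4 genes changed (the 6 h line difference of OsSUS6 stayed at -0.51, adjusted p = 0.0475), and 4591 probe sets passed in 9311 at 3 h against 4906.

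Probe sets called fell with centring from 1700 to 988 in 9311 from 3 h to 6 h, from 4660 to 2983 in NIL-BPH9 at 3 h, from 4769 to 3014, 2468 to 1635 and 3736 to 2265 between the lines at 0, 3 and 6 h, and from 3482 to 1676, 2325 to 813 and 1449 to 617 for the line differences. The share of rises among calls went from 56.3% to 85.0% in 9311 at 6 h, 57.7% to 80.9% from 3 h to 6 h, 44.3% to 76.8% in NIL-BPH9 at 6 h, 48.0% to 73.6% from 3 h to 6 h, 48.0% to 33.8% between the lines at 0 h, and 54.5% to 69.9% and 54.3% to 69.7% for the 6 h and 3 to 6 h line differences. Centring moved the median change by up to the step from -0.055 to 0.065 (NIL-BPH9 at 6 h). With only the arrays compared, 2486 passed in 9311 at 3 h, 805 at 6 h, 1734 between the lines at 0 h, 1221 for the 6 h line difference and 2356 for that from 3 to 6 h. No trend gave 1309 for the 6 h line difference, and left-out arrays gave 1424 to 4052 there and 3533 to 5268 in NIL-BPH9 at 6 h. The cause of these moves was not tested.

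For the other listed genes, 93 of 544 recomputed calls were lost with all arrays kept and 149 of 480 with an array left out, and 0 turned. At 3 h the genes that rose numbered 3 to 7 in 9311 and 2 to 4 in NIL-BPH9 with all arrays kept, where 1 to 4 fell in NIL-BPH9, and at 6 h 6 to 8 rose and 1 to 2 fell in NIL-BPH9.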
